A study of Mus musculus with 30 samples.

Results

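The genes described here encode signalling kinases and phosphatases: 114 genes among the 7151 that the arrays carried under 1 symbol. They were chosen by symbol alone, as the mitogen-activated protein kinases and the kinases above them (Mapk, Map2k, Map3k and Map4k), casein kinases (Csnk), protein kinases A, C, D and G with the AMP-activated kinase and the DNA-dependent kinase (Prk), phosphoinositide 3-kinase (Pik3), Akt, Gsk3, the serine and threonine phosphatases PP1 to PP6 (Ppp), tyrosine phosphatases (Ptpn and Ptpr) and dual specificity phosphatases (Dusp), without Mapk13 and Csnk1g1. The symbol rule uses no measured value, but it was set with earlier results of these data known. Mapk13, left out, is a gene that the paper lists as raised in the hippocampus of both null lines. The arrays held 159 probes for them, with 77 genes on 1 probe, 29 on 2 and 8 on 3, and a gene's value is the mean of its probes. By symbol 47 belong to the kinase arm, counting subunits and scaffolds, and 66 to the phosphatase arm. The remaining gene, Prkcsh, carries a kinase-like symbol but encodes a subunit of a glucosidase of the endoplasmic reticulum.

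Protein kinases transfer phosphate from ATP to serine, threonine or tyrosine residues, and phosphatases remove it, so the state of a target depends on the balance of both. In MAP kinase cascades each kinase activates the next, and dual specificity phosphatases switch the last kinase off. Protein kinase A responds to cAMP, which prostaglandins raise or lower through their receptors, and the calcium-dependent phosphatase calcineurin is abundant in neurons.

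Cyclooxygenases COX-1 and COX-2 make prostaglandins from arachidonic acid. Mice aged 12 weeks, on a mixed background that included C57BL6/6 and an Ola strain, gave cerebral cortex and hippocampus. Each region had 5 groups of 3 arrays, so that 10 groups were compared. The COX-1 line had wild-type (+/+) and null (-/-) mice, and the COX-2 line had these and heterozygous (+/-) mice. Each null line had its own wild-type mice, bred for a generation from wild-type offspring of that line, the lines were kept apart, and the paper does not describe the COX-2+/- groups. Null and wild-type groups were of 3 mice each and the arrays were run in triplicate, but no source links an array to a mouse or gives the number of heterozygous mice, so p-values measure the spread between these arrays, which may be technical. RNA was labelled with a radioactive isotope and hybridised to nylon membranes, and the authors expressed each spot as a Z score, the distance of its natural log intensity from the array mean in SD of that array. A difference in Z is therefore not a fold change, and Z scores of different probes do not rank genes by abundance. Because tissue was measured in bulk, fewer cells of a type and less RNA per cell cannot be told apart.

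The first part of the table, with 8448 of its 16896 probes, was the same, value for value, in 5 of 6 arrays of COX-1 cortex, so comparisons with COX-1 cortex used probes of the second part only, which carry 73 of the 114 genes. Over the second part, replicate arrays had correlations from 0.984 to 0.993. Ttr, the transthyretin transcript of the choroid plexus, was the only gene measured of 5 choroid plexus markers, and its Z score ran from 0.17 to 1.59 over the 9 COX-2 cortex arrays and from 0.25 to 2.36 over the 15 hippocampus arrays. Of 10 hippocampus markers 3 were measured, and their mean Z lay between -0.81 and -0.53 in the hippocampus groups and between -0.85 and -0.71 in the COX-2 cortex groups, below the array mean in both. The median difference of these 3 genes between regions of the COX-2 line was 0.0895, and the 1 of them on the second part differed by 0.361 in the COX-1 line, both higher in hippocampus and untested because the genes lay below the array mean. Ptgs1 and Ptgs2, the genes deleted, were not found by symbol and are not analysed here.

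On the scale of these arrays, 43 of the 114 genes had a mean Z above 0 in each of the 8 groups that hold all probes, 59 were below 0 in each, and 12 lay on both sides. Only genes above 0 could be called, so levels set which families could be examined. Both catalytic subunits of PP1 measured were above 0 in all 8 groups, as were 8 of 16 PP1 regulatory subunits, which steer that phosphatase to its targets, and 2 of 3 calcineurin genes. PP2A, the other abundant serine and threonine phosphatase, had 2 of its 11 genes above 0 and 8 below, the receptor tyrosine phosphatases had 2 of 8 above and 6 below, and none of 3 MAP kinases was above 0 in all groups. Group means of a gene spanned a median of 0.171 in Z, from 0.0565 to 0.417, and the median SD between arrays of a group was 0.0522. The plot of mean Z scores by family shows these ranges.

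**Figure D1:**
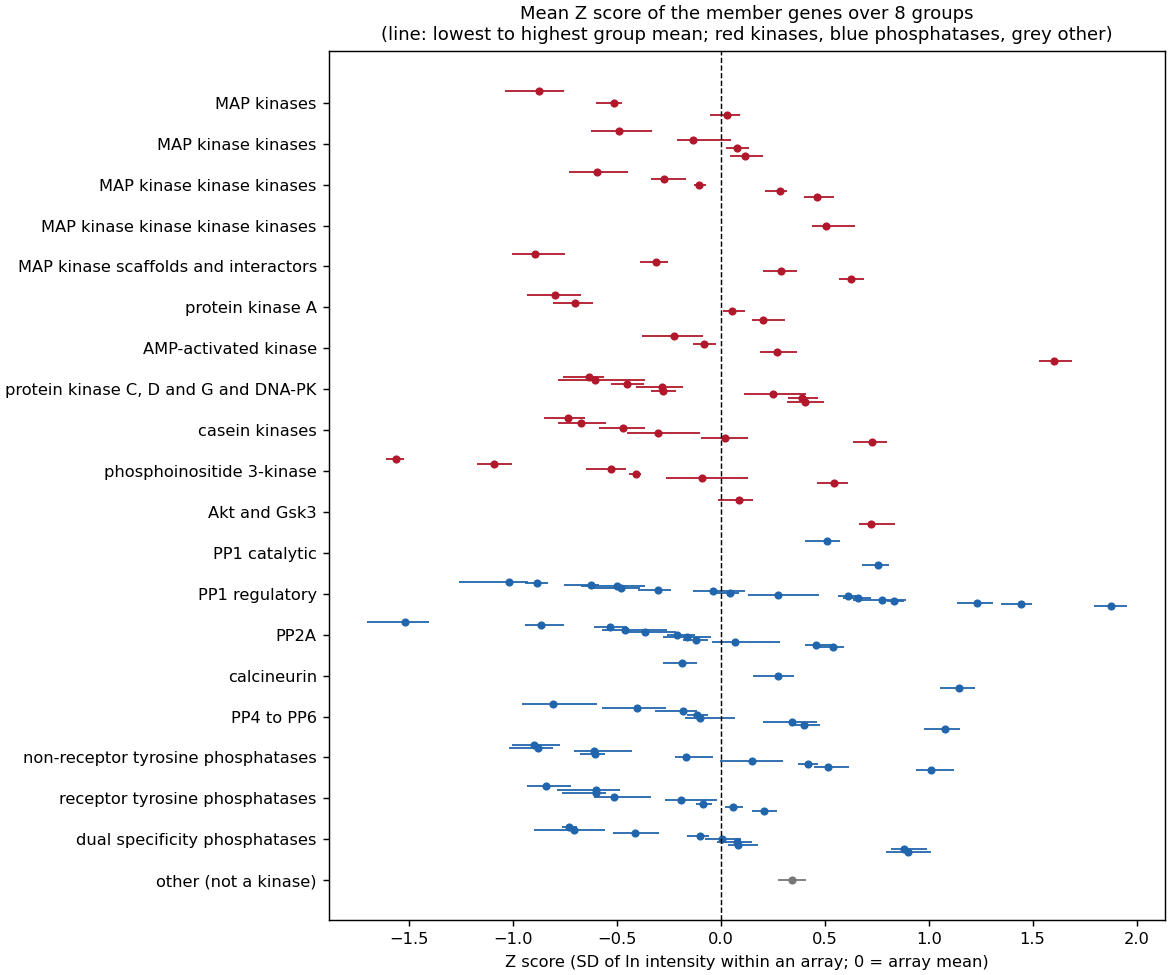
Each point is a member gene placed by its mean Z score over 8 groups (x axis, in SD of ln intensity within an array), with a line from its lowest to its highest group mean and the family on the y axis. Kinase families (red) and phosphatase families (blue) both spread to either side of the array mean at 0, with 43 genes wholly above it and 59 wholly below.

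Promoter sequence is shown for 4 genes whose values carry the comparisons that follow: Prkaca and Prkab2, which were lower in hippocampus in both lines, and Ppp5c and Ptpn13, which met the z ratio rule described with the comparisons in COX-2-/- hippocampus. Each run is the 250 bases before the annotated start, 5′ to 3′ on the gene's strand, from RefSeq on GRCm38.p6, at chr8:83972728-83972977 (plus) for Prkaca, chr3:97657962-97658211 (plus) for Prkab2, chr7:17027915-17028164 (minus) for Ppp5c and chr5:103424942-103425191 (plus) for Ptpn13. Capitals mark TGACG or its complement CGTCA, the core of the cAMP response element.
Prkaca: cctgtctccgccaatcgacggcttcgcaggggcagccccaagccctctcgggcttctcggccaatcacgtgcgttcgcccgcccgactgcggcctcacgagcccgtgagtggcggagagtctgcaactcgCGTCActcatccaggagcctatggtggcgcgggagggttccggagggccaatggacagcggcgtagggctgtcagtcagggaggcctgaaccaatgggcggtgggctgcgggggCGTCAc
Prkab2: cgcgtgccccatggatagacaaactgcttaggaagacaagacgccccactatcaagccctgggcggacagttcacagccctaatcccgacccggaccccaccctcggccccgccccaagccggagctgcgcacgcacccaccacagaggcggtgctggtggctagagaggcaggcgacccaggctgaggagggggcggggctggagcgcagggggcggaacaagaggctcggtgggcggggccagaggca
Ppp5c: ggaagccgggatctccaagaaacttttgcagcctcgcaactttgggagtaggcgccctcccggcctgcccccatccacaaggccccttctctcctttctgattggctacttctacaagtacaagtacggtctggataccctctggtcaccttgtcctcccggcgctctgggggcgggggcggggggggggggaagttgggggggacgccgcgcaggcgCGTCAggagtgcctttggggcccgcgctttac
Ptpn13: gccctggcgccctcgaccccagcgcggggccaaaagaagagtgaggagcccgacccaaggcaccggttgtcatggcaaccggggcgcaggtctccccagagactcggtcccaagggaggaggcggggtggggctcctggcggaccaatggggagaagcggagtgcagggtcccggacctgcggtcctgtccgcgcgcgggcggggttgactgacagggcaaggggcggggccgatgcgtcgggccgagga
The core occurred at 2 places before Prkaca, at 1 before Ppp5c and at none before Prkab2 or Ptpn13 in these windows. The GC box GGGCGG, counted on both strands, occurred 2 times before Prkaca, 5 times before Prkab2, 2 times before Ppp5c and 2 times before Ptpn13. A window of 300 bases was given for 96 of the 114 genes, 140 windows in all. TGACG on either strand was in 38.6% of them, against 20.8% of all 32851 windows, the full element TGACGTCA, which contains it, in 7.14% against 1.79%, and GGGCGG in 70% against 35.7%. CCAAT was in 32.1% against 37.4% and TATAAA in 7.14% against 13.6%. The full element lay in windows of 8 genes: Ppp2ca, Prkar1a, Prkcz, Ptpn11, Ppp1r15a, Ppp2r2d, Csnk1g2 and Ptprs. These are matches of letters and say nothing of binding. The 32851 windows belong to 27025 genes, were not limited to genes on the arrays and were not matched for base content.

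Few of these genes were called between null and wild-type mice. The z ratio rule used here, after that of the study, asks for a mean Z above 0, a Z test P under 0.05 and a z ratio beyond 1.5 in either direction. The z ratio here scales a gene's difference in mean Z by the SD of such differences over all genes in the comparison. The study's methods word the divisor as the SD of genes on an array, which is 1 for Z scores. With that divisor 0 of all genes met the rule in any comparison with wild-type mice or between the wild-type mice of the lines. No gene tested in these comparisons had a difference in Z larger than 0.697. In the 4 comparisons of null with wild-type mice 3 members met the z ratio rule used here. They were the MAP kinase phosphatase Dusp16 in COX-1 cortex and the phosphatases Ppp5c and Ptpn13 in COX-2 hippocampus. No kinase of the set, which leaves out Mapk13, met it. Under limma with Benjamini-Hochberg adjustment over all genes above 0, none passed at an adjusted p under 0.05. With a correction for the position of a probe in the table, the z ratios were 1.48 for Dusp16, -1.02 for Ppp5c and -1.07 for Ptpn13, so none of these calls held, and Ppp2cb met the rule in COX-1 cortex and Mapk8ip3 in COX-2 hippocampus instead.

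In COX-1-/- cortex 1 of the 32 members above 0 met the z ratio rule, where 3.95% of 2001 genes did, and 0 passed limma, where 0.05% did. At an unadjusted p under 0.05 limma gave 6 members, 18.8% of them against 15.3% of all genes. The gene was Dusp16, a nuclear and cytoplasmic phosphatase that inactivates the stress kinases JNK and p38. Its Z scores were 0.024, 0.011 and -0.030 in COX-1+/+ cortex and 0.086, 0.160 and 0.221 in COX-1-/- cortex, with no overlap. The difference was 0.154 (SE 0.0392, n = 3 arrays per group, z ratio 1.56, adjusted p = 0.0886 by limma). In COX-1 hippocampus the Dusp16 groups overlapped, with means of -0.019 and 0.006, and in COX-2 cortex the difference was -0.0366 (SE 0.0376). The Dusp16 call rested on single arrays, since the z ratio was 1.37 without COX-1-/- replicate 2, 1.23 without COX-1-/- replicate 3 and 1.26 without COX-1+/+ replicate 3. Dusp16 had 2 probes, with mean Z scores of -0.594 and 0.754 outside COX-1 cortex. The call was lost with the brighter probe alone and with probe values.

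The median difference of the 32 members in COX-1-/- cortex was 0.0359 in Z, against 0.00722 over all genes, and 22 of them had a higher mean in the null mice, as had 1091 of all 2001 genes tested. Mapk1ip1l, named after a protein that interacts with MAP kinase 1, had the highest z ratio, 1.92, without meeting the rule. Its probe of the second part read 0.542, 0.496 and 0.195 in COX-1+/+ cortex and 0.600, 0.549 and 0.652 in COX-1-/- cortex, so the groups did not overlap with 1 wild-type array far below the other 2 (difference 0.190, SE 0.0697, adjusted p = 0.213 by limma). Ppp2cb, a catalytic subunit of PP2A, reached 0.513, 0.459 and 0.390 in wild-type and 0.567, 0.598 and 0.605 in null cortex (difference 0.136, SE 0.0452, z ratio 1.38, adjusted p = 0.175 by limma). Mapk14, the stress kinase p38 alpha, had the lowest z ratio, -1.06, with 0.197, 0.176 and 0.086 in wild-type and 0.084, 0.057 and 0.005 in null arrays (difference -0.104, SE 0.0392, adjusted p = 0.222 by limma). Neither gene's groups overlapped, and neither difference passed the adjustment. With Dusp16 and Mapk1ip1l, these genes were among 9 of 32 members without overlap in COX-1 cortex, 28.1% against 19.3% of all genes.

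In COX-2-/- cortex 0 of 50 members met the z ratio rule, where 4.02% of 3361 genes did. Limma with adjustment passed 0 members and 0% of all genes, and at an unadjusted p under 0.05 it gave 4 members, 8% against 10.4% of all genes. The members' median difference was -0.0276 in Z against -0.0021 over all genes, and 18 of 50 had a higher mean in the null mice, as had 1637 of all 3361 genes tested. Ttr lay apart here, with arrays from 0.170 to 0.215 in wild-type and from 0.223 to 0.447 in null cortex, and its part in these differences was not tested. The z ratio furthest from 0, -1.49, was that of Prkaa1, the catalytic subunit of AMP-activated kinase, which senses a fall in cellular energy. Prkaa1 read 1.733, 1.656 and 1.605 in COX-2+/+ and 1.643, 1.413 and 1.533 in COX-2-/- cortex, where the groups overlapped (difference -0.135, SE 0.0572, adjusted p = 0.458 by limma). Among receptor tyrosine phosphatases Ptprd, a synaptic adhesion protein, read 0.263, 0.288 and 0.261 against 0.123, 0.222 and 0.206 in the null arrays (difference -0.0867, SE 0.0378, adjusted p = 0.458).

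In COX-1-/- hippocampus 0 of 49 members met the z ratio rule, where 4.46% of 3431 genes did. Limma with adjustment passed 0 members, against 0.117% of all genes, and at an unadjusted p under 0.05 it gave 8 members, 16.3% against 16% of all genes. Ppp5c, a phosphatase bound to Hsp90 chaperone complexes, had the smallest adjusted p. Its Z scores were 0.356, 0.384 and 0.324 in COX-1+/+ and 0.206, 0.192 and 0.212 in COX-1-/- hippocampus, with no overlap (difference -0.152, SE 0.0359, z ratio -1.43, adjusted p = 0.083 by limma). The PP2A regulatory subunit Ppp2r5d had the lowest z ratio, -1.77, but its arrays overlapped, with 0.324, 0.420 and 0.117 in wild-type and 0.031, 0.081 and 0.187 in null mice (adjusted p = 0.205). Ppp1cb, a catalytic subunit of PP1, read 0.435, 0.359 and 0.423 in wild-type and 0.630, 0.481 and 0.520 in null hippocampus (difference 0.138, SE 0.0409, z ratio 1.30, adjusted p = 0.139 by limma). Csnk1d, a casein kinase known for its part in the circadian clock, read 0.179, 0.091 and 0.120 against 0.021, -0.039 and 0.070, with a z ratio of -1.06 and an adjusted p of 0.226. The wild-type arrays of Ppp1cb lay wholly below the null arrays and those of Csnk1d wholly above, and neither passed either rule. With Ppp5c they were among 10 of 49 members without overlap, 20.4% against 21.2% of all genes. The mean of the 3 neuron markers measured, of 8 listed, ran from 0.397 to 0.418 over wild-type and from 0.428 to 0.452 over null arrays, and its part was not tested.

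In COX-2-/- hippocampus 2 of 48 members met the z ratio rule, both lower, where 4% of 3379 genes met it in either direction. Limma with adjustment passed 0 members and 0% of all genes, and at an unadjusted p under 0.05 it gave 5 members, 10.4% against 12.1% of all genes. Ppp5c again was lower in the null mice. Its Z scores were 0.383, 0.439 and 0.480 in COX-2+/+ and 0.321, 0.258 and 0.263 in COX-2-/- hippocampus, without overlap (difference -0.153, SE 0.0359, z ratio -1.67, adjusted p = 0.289 by limma). COX-2+/- hippocampus, compared with the same wild-type arrays, read 0.489, 0.436 and 0.458 and stayed within or above their range. Ptpn13, a large tyrosine phosphatase of the submembrane cytoskeleton, read 0.563, 0.631 and 0.650 in COX-2+/+, 0.534, 0.487 and 0.523 in COX-2+/- and 0.452, 0.415 and 0.485 in COX-2-/- hippocampus. The Ptpn13 groups did not overlap, and the null mice differed from wild-type by -0.164 (SE 0.0409, z ratio -1.79, adjusted p = 0.289 by limma) and the heterozygous mice by -0.0999 (SE 0.0409, z ratio -0.92, adjusted p = 0.206). In COX-1 hippocampus the difference of Ptpn13 was -0.0457, with overlapping arrays. Null and wild-type arrays of COX-2 hippocampus did not overlap in 10 of 48 members, 20.8% against 16.8% of all genes.

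Both calls in COX-2 hippocampus depended on single arrays. The z ratio of Ppp5c was -1.42 without COX-2-/- replicate 2 and -1.32 without COX-2+/+ replicate 3, and that of Ptpn13 was -1.49 without COX-2-/- replicate 1, -1.46 without COX-2-/- replicate 2 and -1.49 without COX-2+/+ replicate 3. Further kinase-arm genes stood near the rule without meeting it. Mapk8ip3, a scaffold that gathers the JNK kinases and links them to axonal transport, read 0.364, 0.314 and 0.367 in wild-type and 0.238, 0.149 and 0.252 in null hippocampus (difference -0.135, SE 0.0363, z ratio -1.47, adjusted p = 0.289 by limma). Prkci, an atypical protein kinase C of cell polarity, read 0.348, 0.402 and 0.275 against 0.446, 0.465 and 0.492 in the null arrays (difference 0.126, SE 0.049, z ratio 1.37, adjusted p = 0.353).

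The differences of Ppp5c in the hippocampus of the null lines, which have separate wild-type controls, were thus -0.152 and -0.153. The contrast of the COX-1 and the COX-2 difference there was 0.0016 in Z (adjusted p = 0.997 by limma), a value that does not show them to be equal. In COX-1 cortex the difference had the opposite sign: Ppp5c read 0.420, 0.347 and 0.396 in COX-1+/+ and 0.561, 0.552 and 0.467 in COX-1-/- cortex (difference 0.139, SE 0.0456, z ratio 1.41, adjusted p = 0.167 by limma), and the COX-2 cortex difference was 0.0039. The COX-1 null difference in hippocampus minus that in cortex was -0.291 (SE 0.0563, adjusted p = 0.066 by limma), and the same contrast in the COX-2 line was -0.157 (adjusted p = 0.162). The difference of Mapk8ip3 had the same sign in COX-1-/- hippocampus, with 0.335, 0.404 and 0.355 in wild-type and 0.251, 0.260 and 0.231 in null arrays (difference -0.117, SE 0.0363, z ratio -1.11, adjusted p = 0.15 by limma). The plots of single arrays show these genes over all groups.

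**Figure D2:**
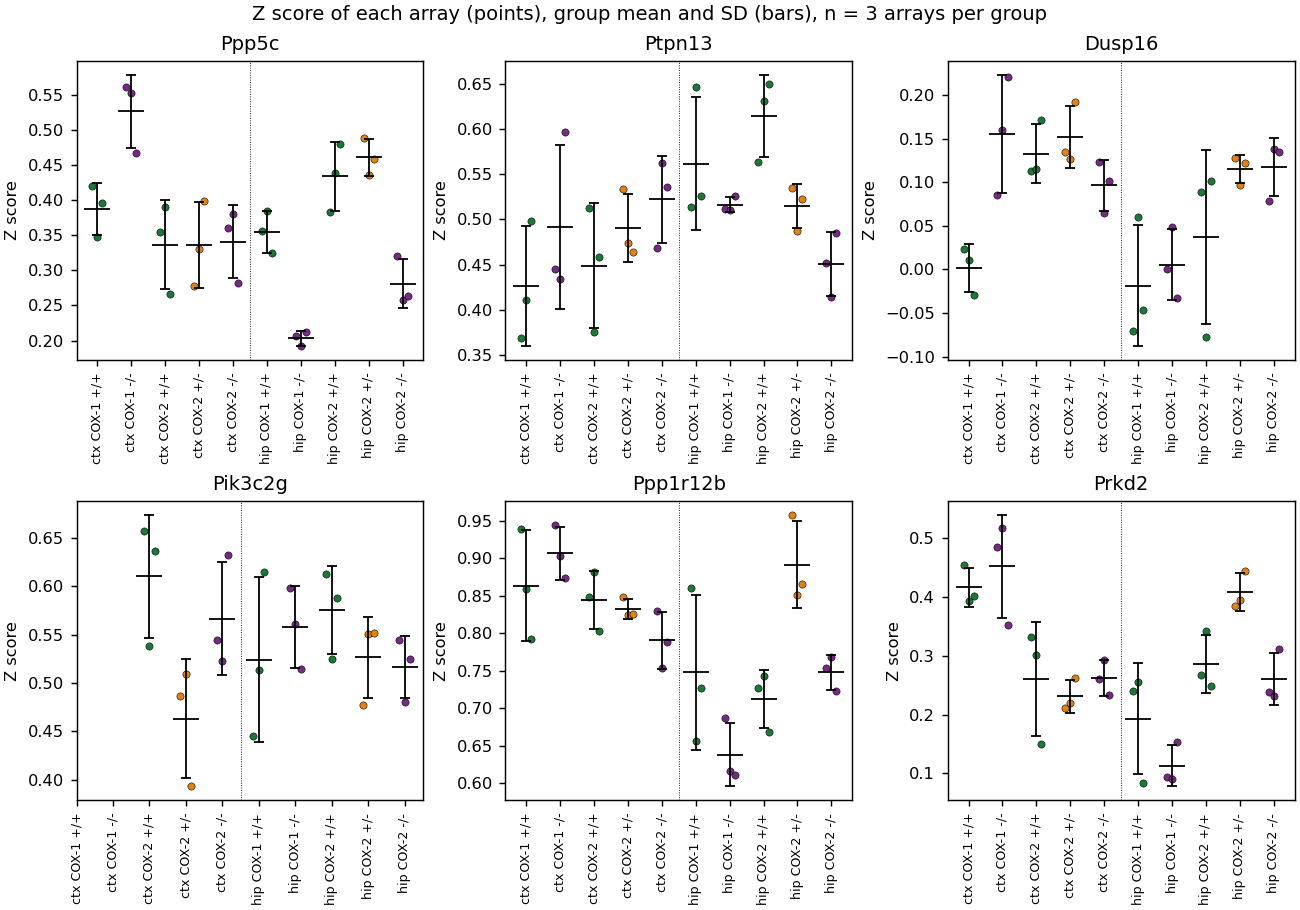
Z score of each array (points; green wild-type, purple null, orange heterozygous) with the mean and SD of 3 arrays (bars) in every group of cortex (ctx) and hippocampus (hip), for the 5 genes that met the z ratio rule against wild-type mice of the same line and for Prkd2; the y axes differ between genes. Ppp5c lay between 0.192 and 0.212 in the 3 COX-1-/- hippocampus arrays, below each COX-1+/+ array.

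No contrast of null differences between lines or regions passed limma for any member. The COX-1 minus COX-2 difference passed for 0 of 32 members in cortex and 0 of 50 in hippocampus, where 0% of all genes passed in either region. The unadjusted p was under 0.05 for 8 members in cortex, 25% against 11.4% of all genes, and for 1 in hippocampus, 2% against 6.76%. The COX-2 null difference in hippocampus minus that in cortex passed for 0 of 50 members against 0.624% of all genes, with 5 members at an unadjusted p under 0.05, 10% against 21.2% of all genes. The smallest adjusted p there, 0.0573, was shared by Ptpn13 (-0.237, SE 0.0574) and Mapk8ip3 (-0.201, SE 0.046). The matching contrast in the COX-1 line passed for 0 of 33 members against 0% of all genes, with 7 members at an unadjusted p under 0.05, 21.2% against 13.3% of all genes. The z ratio rule was not defined for these contrasts.

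Mice with 1 COX-2 allele shared their wild-type arrays with the COX-2 null mice and gave 1 call in each region. In COX-2+/- cortex 1 of 52 members met the z ratio rule, where 3.21% of 3362 genes did, and limma with adjustment passed 0 members and 0% of all genes, with 5 members at an unadjusted p under 0.05, 9.62% against 8.42% of all genes. The gene that met the rule was Pik3c2g, a class II phosphoinositide 3-kinase, with 0.657, 0.538 and 0.636 in COX-2+/+ and 0.487, 0.510 and 0.393 in COX-2+/- cortex (difference -0.147, SE 0.0494, z ratio -1.53, adjusted p = 0.421 by limma). The null arrays of Pik3c2g read 0.544, 0.523 and 0.633 and overlapped the wild-type ones. Without COX-2+/- replicate 3 its z ratio was -1.06, without COX-2+/+ replicate 1 it was -1.25 and without COX-2+/+ replicate 3 it was -1.24, and with the correction for table position it was -1.30, where the PP2A subunit Ppp2r5d met the rule instead.

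In COX-2+/- hippocampus 1 of 48 members met the z ratio rule, where 6.27% of 3365 genes did. Limma with adjustment passed 0 members, against 1.78% of all genes, and at an unadjusted p under 0.05 it gave 9 members, 18.8% against 18.4% of all genes. Ppp1r12b, a myosin-targeting subunit of PP1, read 0.727, 0.743 and 0.669 in COX-2+/+ and 0.958, 0.851 and 0.866 in COX-2+/- hippocampus, with no overlap (difference 0.179, SE 0.0497, z ratio 1.65, adjusted p = 0.0764 by limma). The null arrays of Ppp1r12b read 0.753, 0.768 and 0.722 and overlapped the wild-type range. Its z ratio was 1.27 without COX-2+/- replicate 1 and 1.34 without COX-2+/+ replicate 3, and 1.25 with the correction for table position, where Prkd2 met the rule instead. The choroid plexus transcript Ttr averaged 0.99 in COX-2+/- and 1.58 in COX-2+/+ hippocampus, with arrays from 0.25 to 1.90 and from 0.40 to 2.36. The mean of the 3 neuron markers ran from 0.514 to 0.564 over COX-2+/+ and from 0.409 to 0.461 over COX-2+/- arrays, that of the 3 hippocampus markers from -0.650 to -0.498 and from -0.917 to -0.728, and that of the 3 microglia markers from 0.139 to 0.154 and from 0.166 to 0.183, none overlapping. The means of the astrocyte, endothelium and thalamus markers measured overlapped between these groups. Groups did not overlap in 19 of the 48 members, 39.6% against 32.7% of all genes. The part of these markers in the differences was not tested. Map2k3, which activates p38, and Akt1, a survival kinase downstream of phosphoinositide 3-kinase, gave z ratios of 1.32 and 1.14 with adjusted p of 0.278 and 0.393 by limma. The strip plot of z ratios shows the members of all 6 comparisons.

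**Figure D3:**
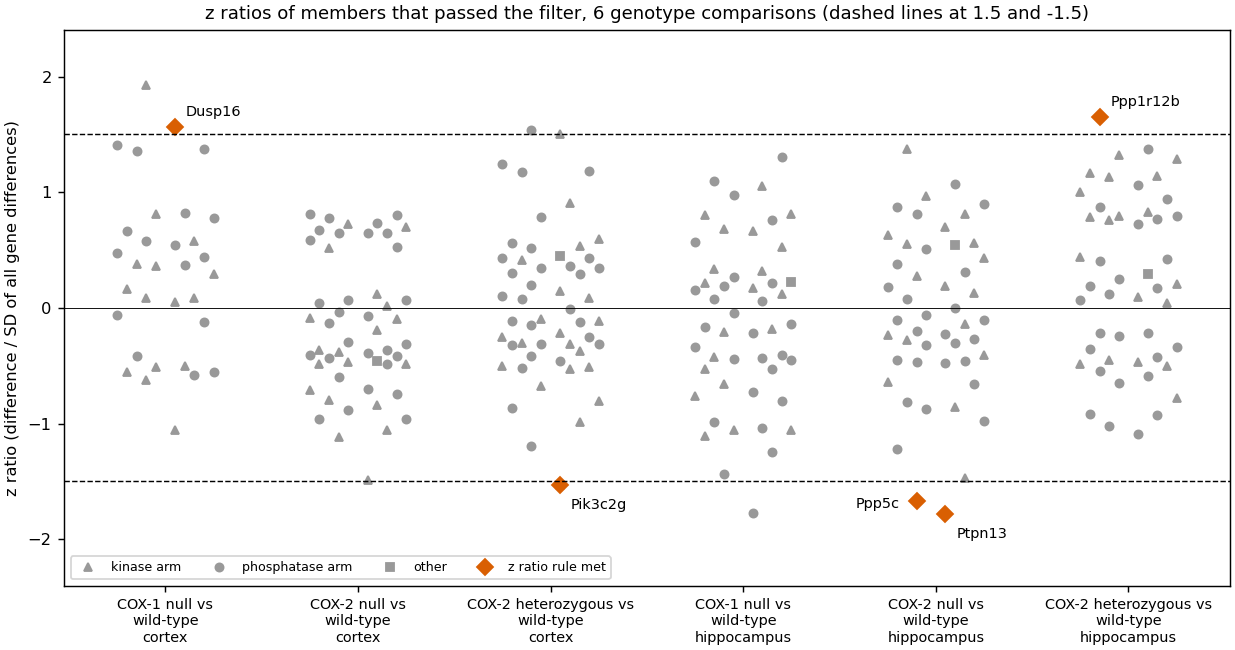
z ratio (y axis) of each member above the array mean in the 6 comparisons with wild-type mice (x axis), with triangles for the kinase arm, circles for the phosphatase arm and diamonds for the 5 gene calls that met the whole rule; grey symbols past the dashed lines at 1.5 missed the Z test. The calls were Dusp16, Pik3c2g, Ppp5c, Ptpn13 and Ppp1r12b, and no member kinase of a MAP kinase cascade was among them. Mapk13 is not a member.

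The wild-type mice of the lines also differed from each other in some of these genes. In cortex, COX-2+/+ against COX-1+/+ mice gave 1 of 34 members by the z ratio rule, where 6.14% of genes met it, and 1 by limma, where 3.04% did. By the z ratio rule it was Mapk1ip1l (2.19), whose z ratio fell to 1.15 without COX-1+/+ replicate 3, the array that was also low in its null comparison. By limma it was Ppp1r21, an endosomal protein named for binding PP1 (difference -0.146, SE 0.0375, adjusted p = 0.0496), and it did not pass with any of the 6 arrays left out. In hippocampus 2 of 49 members met the z ratio rule, Ppp1r21 and Ppp2r5d, where 3.81% of genes did, and 4 passed limma, where 6.89% did: Ppp1cb (difference 0.165, adjusted p = 0.0274), Ppp3cb, a catalytic subunit of calcineurin (0.151, 0.0321), Ppp1r21 (-0.217, 0.0128) and Ppp2r5d (-0.256, 0.0378). Of these Ppp1r21 passed in each of the 6 fits that left out an array, which gave 1 or 2 genes. The mean of the 3 neuron markers ran from 0.397 to 0.418 over COX-1+/+ and from 0.514 to 0.564 over COX-2+/+ hippocampus arrays. That of the 3 microglia markers ran from 0.175 to 0.282 and from 0.139 to 0.154. The means of the other marker lists measured overlapped between these groups, and the part of the markers was not tested. Ppp5c, Ptpn13 and Dusp16 were not among the genes that passed between wild-type mice, which does not show their controls to be alike. Ppp5c differed by 0.0791 between wild-type hippocampi (SE 0.0359, adjusted p = 0.203 by limma). With both lines' wild-type arrays pooled as the control, the Dusp16 call in COX-1 cortex and the Ppp5c and Ptpn13 calls in COX-2 hippocampus were lost. Ppp5c and Ptpn18 met the z ratio rule in COX-1 cortex and in COX-1 hippocampus with that control.

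Between the regions, Ppp3ca was higher and Prkaca and Prkab2 were lower in hippocampus in both lines. In the COX-2 line, hippocampus against cortex over all genotypes, 9 arrays against 9, gave 3 of 51 members by limma at an adjusted p under 0.05, where 12.1% of 3366 genes passed. Ppp3ca, the main neuronal catalytic subunit of calcineurin, was higher in hippocampus, and Prkaca, a catalytic subunit of protein kinase A, and Prkab2, a regulatory subunit of AMP-activated kinase, were lower. In the COX-1 line, 6 arrays against 6, 12 of 33 members passed, where 33.3% of 2024 genes did. Of these 3 were higher in hippocampus, where 15.5% of genes were, and 9 were lower, where 17.8% were. The median member difference in the COX-2 line was 0.00996 against 0.00265 over all genes.

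Ppp3ca ran from 1.03 to 1.15 with a median of 1.06 in COX-2 cortex and from 1.11 to 1.26 with a median of 1.19 in COX-2 hippocampus. In the COX-1 line it ran from 0.897 to 1.05 in cortex and from 1.15 to 1.23 in hippocampus. The regions overlapped in the COX-2 line and did not in the COX-1 line, with differences of 0.110 (SE 0.023, adjusted p = 0.0064 by limma) and 0.217 (SE 0.0339, adjusted p = 0.000536). The difference lay mainly in 1 of its 2 probes: the dimmer probe differed by 0.240 in the COX-2 line and 0.351 in the COX-1 line. Its mean Z over both regions was 0.127 and 0.0421. In COX-1 cortex its mean thus lay below 0, and as a single probe it passed the filter there only through the hippocampus arrays. The brighter probe differed by -0.0203 and 0.0832, so with the brightest probe alone the sign turned in the COX-2 line.

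Prkaca ran from 0.159 to 0.331 with a median of 0.261 in COX-2 cortex and from 0.124 to 0.223 with a median of 0.181 in COX-2 hippocampus. In the COX-1 line the cortex arrays lay between 0.228 and 0.314 and the hippocampus arrays between 0.113 and 0.201, with no overlap. The differences were -0.0742 (SE 0.02, adjusted p = 0.0259 by limma) and -0.114 (SE 0.0266, adjusted p = 0.00557), again larger in 1 of 2 probes (-0.143 and -0.169, against -0.005 and -0.059). Prkab2 ran from 0.232 to 0.407 in COX-2 cortex and from 0.195 to 0.328 in COX-2 hippocampus, and from 0.302 to 0.364 and from 0.145 to 0.317 in the COX-1 line. Its differences were -0.0715 (SE 0.0224, adjusted p = 0.0476 by limma) and -0.127 (SE 0.0334, adjusted p = 0.011), and the arrays of the regions overlapped in both lines. The Prkab2 call in the COX-2 line was lost in 15 of 18 fits that left out an array, and that of Prkaca in 3, those without replicate 1 of COX-2+/+, 2 of COX-2+/- or 2 of COX-2-/- cortex. Of 32 members tested in both lines these 3 passed in both, 9 passed in the COX-1 line alone and 0 in the COX-2 line alone. Of all 1846 genes tested in both lines 5.04% passed in both, 26.8% in the COX-1 line alone and 6.23% in the COX-2 line alone.

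The 9 genes of the COX-1 line alone span kinases and phosphatases. Prkd2, a protein kinase D that acts at the Golgi, had the largest difference, with 0.353 to 0.519 in COX-1 cortex and 0.084 to 0.255 in COX-1 hippocampus (difference -0.282, SE 0.039, adjusted p = 0.000278 by limma). Its regions did not overlap there. That held for 3 of 33 members in the COX-1 line, 9.09% against 13.9% of all genes. In the COX-2 line Prkd2 ran the other way, from 0.149 to 0.332 in cortex and from 0.232 to 0.445 in hippocampus (0.0667, adjusted p = 0.103). Its relative Prkd3 differed by -0.118 in the COX-1 line and by 0.0116 in the COX-2 line.

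Among phosphatases, Ppp5c differed between the regions of the COX-1 line by -0.178 (SE 0.0282, adjusted p = 0.000591 by limma), with 0.347 to 0.561 in cortex and 0.192 to 0.384 in hippocampus. Taken by genotype, the Ppp5c difference was -0.0327 in COX-1+/+ and -0.323 in COX-1-/- mice. Dusp7 and Dusp12, dual specificity phosphatases of which Dusp7 acts on the MAP kinase ERK, differed by -0.148 and -0.160, Ppp1r12b by -0.192 and the tyrosine phosphatase Ptpn18 by -0.142. Ppp1r21 and Ppp1r8, a nuclear inhibitor of PP1, were higher in hippocampus by 0.157 and 0.117. Adjusted p-values of these genes lay between 0.00243 and 0.0466 by limma, and the Ptpn18 call was lost in 9 of 12 fits that left out an array.

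**Figure D4:**
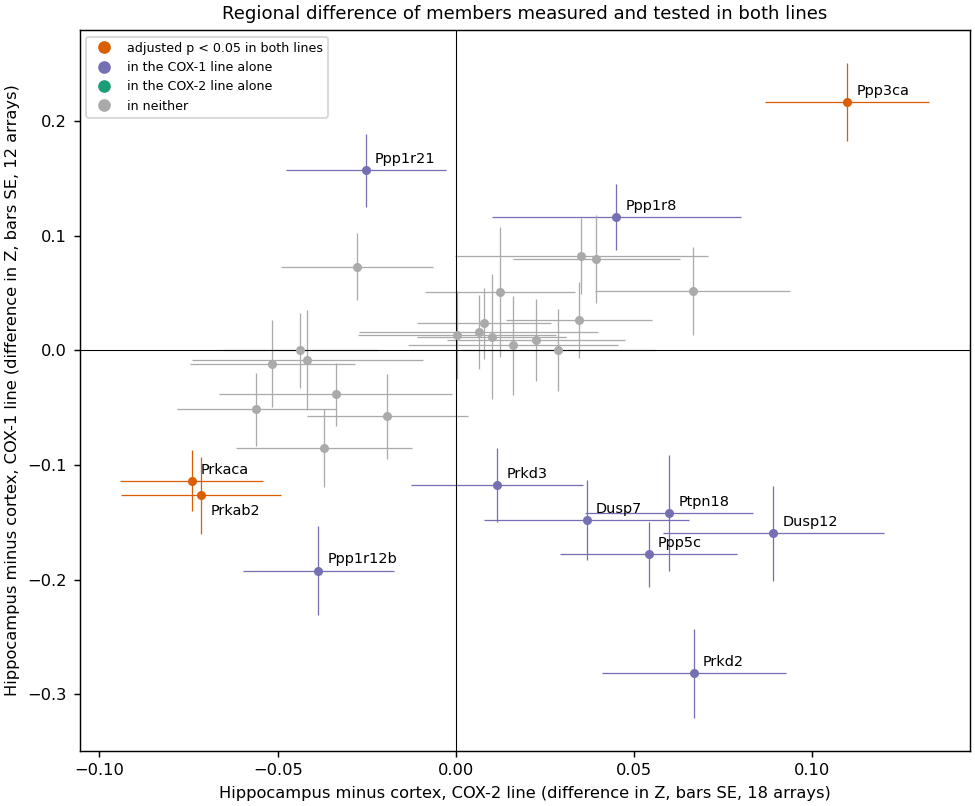
Difference in Z between hippocampus and cortex of each member tested in both lines, in the COX-2 line (x axis, 18 arrays) and the COX-1 line (y axis, 12 arrays), with bars of 1 SE; the axes have different ranges. Ppp3ca, Prkaca and Prkab2 (orange) passed in both lines, and 7 of the genes that passed in the COX-1 line, Prkd2 and Ppp5c among them, had differences of opposite sign in the lines; such genes made up 12.4% of all genes tested in both.

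By genotype, 3 of 51 members passed between regions in COX-2+/+ mice, where 5.34% of genes did: Ppp3ca (0.170), Ptpn13 (0.166) and Ppp1r12b (-0.132). In COX-2+/- mice 2 of 51 passed, where 12.5% of genes did: Prkaca (-0.127) and Prkd2 (0.177). In COX-2-/- mice 0 of 50 passed by limma, where 0.0297% of genes did, with 4 at an unadjusted p under 0.05, 8% against 14.8% of all genes. The z ratio rule was not applied between regions. In the COX-1 line 7 of 32 members passed in wild-type mice, where 20.4% of genes did, and 10 of 34 in null mice, where 16.8% did. Ppp3ca and Prkd2 passed in both COX-1 genotypes. Whether the genotypes differ in these regional values was tested only by the contrasts of null differences, in which no member passed.

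The regional difference itself was contrasted between the lines, in a test added after the data were seen. It passed for 10 of 34 members by limma, where 24.3% of 2018 genes passed. Prkd2 (-0.349, SE 0.0445, adjusted p = 4.44e-06) stood furthest apart, followed by Dusp12 (-0.249) and Ppp5c (-0.232, SE 0.0356, adjusted p = 4.06e-05). Prkaca and Prkab2 did not pass, at -0.0397 and -0.0551 with adjusted p of 0.35 and 0.305. The lines share no array, and line cannot be told apart from any difference in the making of their arrays. The choroid plexus transcript Ttr was 0.951 higher in Z in hippocampus than in cortex in the COX-2 line (SE 0.311, adjusted p = 0.0561 by limma). Of the other markers tested, 1 of 3 astrocyte genes was higher in hippocampus in the COX-2 line. In the COX-1 line the 1 neuron gene tested was higher in hippocampus and both microglia genes tested were lower. That neuron gene averaged below 0 in cortex of both genotypes there (-0.0354 in wild-type and -0.0095 in null mice). It thus passed the filter only through the hippocampus arrays. The part of these markers in the regional differences was not tested.

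Probes of the same gene gave different answers in many members. The 37 genes with several probes had mean Z scores that lay a median of 0.713 apart, from 0.0823 to 3.37. Ppp4r2, a regulatory subunit of the DNA repair phosphatase PP4, had 3 probes, of which 1 read -0.207, -0.146 and 0.034 in COX-2+/+ and 0.503, 0.465 and 0.503 in COX-2+/- hippocampus (difference 0.596, SE 0.122, z ratio 4.99, adjusted p = 0.0253 by limma over probes). The mean of that probe in COX-2+/+ hippocampus lay below 0, so it passed the filter only through the COX-2+/- arrays. The same probe read -0.222, 0.241 and 0.484 in COX-2-/- hippocampus, a wider spread than in any other group. The other 2 probes of Ppp4r2 differed by -0.0265 and 0.0628 in COX-2+/- hippocampus. Map4k5, a kinase at the head of a JNK cascade, had 1 probe at 0.339, 0.286 and 0.289 in COX-2+/+ and 0.647, 0.537 and 0.723 in COX-2+/- hippocampus (difference 0.331, SE 0.0739, adjusted p = 0.0335 by limma over probes), while its other probe differed by -0.0519. The dimmer Ppp3ca probe fell by 0.209 in COX-2+/- hippocampus (SE 0.0524, adjusted p = 0.0471).

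The study's own lists of changed genes, drawn from these arrays at probe level, hold 6 members, so their presence there is no independent evidence. Ptpn21, a cytoskeletal tyrosine phosphatase, had 1 probe at 0.319, 0.269 and 0.343 in COX-1+/+ and 0.069, -0.173 and -0.059 in COX-1-/- hippocampus (difference -0.364, z ratio -3.18, adjusted p = 0.0534 by limma over probes). Its other 2 probes differed by -0.265 and -0.0153, and the mean of the 3 lay below 0, so the gene was not tested. Map2k2, the ERK kinase MEK2, had 1 probe at 0.270, 0.158 and 0.157 against 0.007, -0.041 and -0.031 (difference -0.217, z ratio -1.89, adjusted p = 0.138) and another that differed by -0.071. The Ptpn21 and Map2k2 probes with z ratios given here had means below 0 in COX-1-/- hippocampus. They passed the filter only through the wild-type arrays. Ppp2ca, the alpha catalytic subunit of PP2A, had 1 probe higher in COX-2-/- cortex by 0.157 (z ratio 1.55, adjusted p = 0.418) and another that differed by -0.0238. Ppp2cb, Ppp5c and Ptpn13 are described above.

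**Figure D5:**
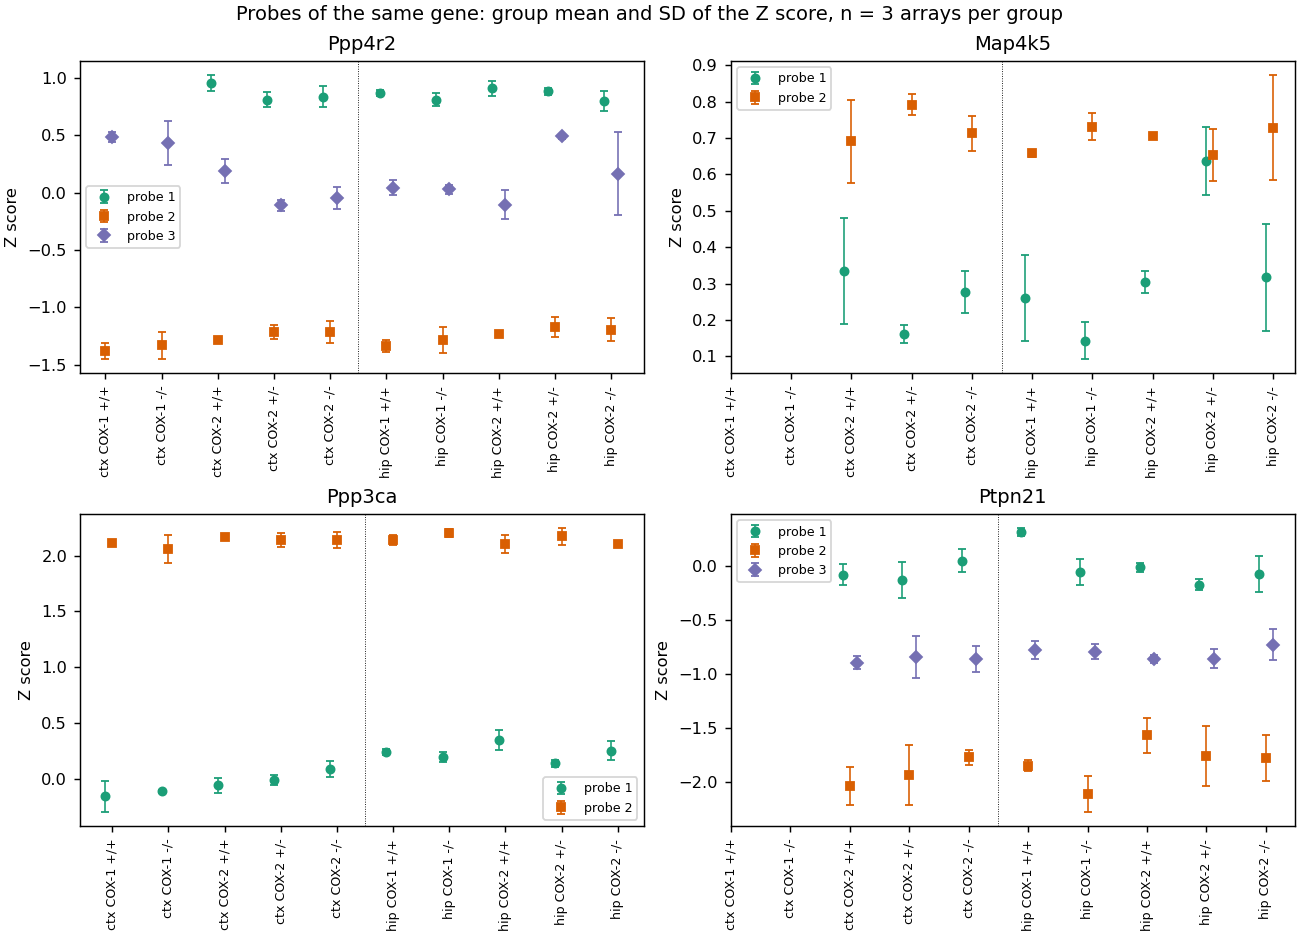
Group mean and SD of the Z score (y axis, n = 3 arrays) of each probe of 4 genes in every group (x axis; probes of the first part are left out in COX-1 cortex). The third probe of Ppp4r2 and the first of Map4k5 lie higher in COX-2+/- hippocampus than in COX-2+/+ hippocampus, by 0.596 and 0.331, while the other probe of Map4k5 differs by -0.0519.

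Other genes of the same pathways were listed by name, and 47 of 90 were measured. In the 4 null comparisons 3 of them met the z ratio rule. Ppm1d, a phosphatase of the p53 response, was 1 of 16 above 0 in COX-1 cortex (z ratio 1.66), where 3.95% of all genes met it. Mtor, the kinase downstream of Akt, was 1 of 23 in COX-2 cortex (-1.82), where 4.02% did. Rras2, a Ras relative, was 1 of 23 in COX-1 hippocampus (-1.60), where 4.46% did. The count was 0 of 22 in COX-2 hippocampus, where 4% of all genes met the rule. In COX-2+/- hippocampus Mtor was the 1 gene of 22 that passed limma (z ratio 4.29, adjusted p = 0.00807), where 1.78% of all genes did. Between regions 1 of 22 passed in the COX-2 line, where 12.1% of all genes did, and 7 of 16 in the COX-1 line, where 33.3% did, 3 higher and 4 lower in hippocampus.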

How the data were processed

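Total RNA of cortex and hippocampus was labelled and hybridised to nylon cDNA membranes by the authors, who scanned them, extracted intensities with ArrayPro and deposited Z scores, each the natural log intensity of a spot less its array mean over the SD. The deposited scores had a mean of 0 and an SD of 1 in each part of the table, array by array. Probe symbols came from the platform annotation: of 16896 probes 9663 had 1 symbol, 436 several and 6797 none, and only those with 1 symbol were used.

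Gene values are means of probes. The z ratio rule follows the study's methods except that it was applied to gene means and its divisor was the SD of gene differences in a comparison, where the methods name the SD on an array. limma 3.58.1 in R 4.3.3 gave moderated fits of group means (lmFit, eBayes), with p-values adjusted by Benjamini-Hochberg among genes of mean Z above 0: the 15 hippocampus arrays, the 9 COX-2 cortex arrays, the 15 cortex arrays on the second part for COX-1 cortex, and the 18 and 12 arrays of a line for the regions. Python 3.11.15, pandas 2.3.3, numpy 2.4.6, R's data.table (1.17.8) and matplotlib 3.10.9 were also used, and the scripts were tested on simulated data. No sequencing depth applies: 3 arrays per group limit the precision.

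Genes were named when called in a genotype comparison (up to 30), between the regions of the COX-2 line (up to 12 in each direction) or by an interaction test, when in the study's lists, or as the largest z ratio of a family with no other gene named. Genes called between regions of the COX-1 line, single probes and genes near a rule were named in addition, after their values were seen. Members and gene lists were chosen with earlier results of these data known. Alternatives were scaling, table position, filters, probes, controls, model terms and single arrays. The contrast of regional differences between lines, the COX-1 contrast between regions, COX-2 cortex on the second part alone and a divisor of 1 in the z ratio were added after seeing the data.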

Additional observations from a re-analysis of the deposited data

Results flagged for a closer look

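The regional difference, hippocampus minus cortex, differed between the COX-1 and the COX-2 line for 10 members by a limma contrast over all 30 arrays, where 24.3% of all genes passed. As COX-1 line minus COX-2 line it was -0.349 for Prkd2, -0.249 for Dusp12, -0.232 for Ppp5c, -0.202 for Ptpn18, -0.185 for Dusp7, -0.154 for Ppp1r12b and -0.129 for Prkd3. It was 0.182 for Ppp1r21, 0.107 for Ppp3ca and 0.101 for Map3k14. Adjusted p-values ran from 4.44e-06 for Prkd2 to 0.0397 for Ppp3ca. In cortex, all COX-1-/- arrays of Mapk1ip1l lay above the COX-1+/+ arrays (difference 0.190), and on the same probe all COX-2-/- arrays lay below the COX-2+/+ arrays (-0.113). The contrast of both differences was 0.303 in Z, with an adjusted p of 0.296 by limma, so it did not pass.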

How the results depend on the processing

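Over all alternatives, 120 counts of called members moved by over 1.5 times or from or to 0, and 304 did not. With a divisor of 1 in the z ratio each count by that rule was 0. Counts by the z ratio rule are given first, with the range over leaving out each array. In COX-1 cortex the count of 1 became 0 with median centring, the brightest probe of a gene, a mean Z above 0.5 and probe values, 4 with no filter, 4 with the SD of the copied values kept and 2 with both lines' wild-type arrays pooled as the control (range 0 to 2). In COX-2 cortex the count of 0 became 2 with the brightest probe, 3 with no filter and 2 with probe values (range 0 to 1, with Prkaa1 met without COX-2-/- replicate 1 or COX-2+/+ replicate 3). In COX-1 hippocampus the count of 0 became 1 with quantile normalization, 1 with median centring, 2 with the brightest probe, 8 with no filter, 2 with probe values and 2 with both wild types (range 0 to 3, with 3 without COX-1+/+ replicate 3). In COX-2 hippocampus the count of 2 became 1 with the correction for table position, 4 with no filter, 1 with a mean Z above 0.5, 1 with probe values and 0 with both wild types (range 0 to 4, with 0 without COX-2+/+ replicate 3 and 4 without COX-2+/+ replicate 2). In COX-2+/- cortex the count of 1 became 0 with quantile normalization, both wild types and the second part of the table alone, and 2 with the brightest probe, no filter and probe values (range 0 to 3, with 3 without COX-2+/- replicate 2 and 0 without COX-2+/- replicate 3). In COX-2+/- hippocampus the count of 1 became 2 with median centring, 3 with the brightest probe, 5 with no filter, 4 with probe values and 2 with both wild types (range 0 to 2, with 0 without COX-2+/+ replicate 3). Between wild-type cortices the count of 1 became 2 with the brightest probe, 2 with no filter and 3 with probe values (range 0 to 2, with 0 without COX-1+/+ replicate 2 or 3), and between wild-type hippocampi the count of 2 became 1 with median centring, 1 with table position, 4 with the brightest probe, 12 with no filter and 0 with a mean Z above 0.5 (range 0 to 2, with 0 without COX-1+/+ replicate 2). With the correction for table position, counts of 1 in COX-1 cortex and COX-2+/- mice were of other genes.

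By limma, COX-1 hippocampus rose from 0 to 1 with no filter, and COX-2+/- hippocampus from 0 to 1 with table position, 1 with an intensity trend and 3 with probe values, without a call in any of its fits lacking 1 array (0 to 0), as in the other comparisons with wild-type mice. Between wild-type cortices the count of 1 became 0 with quantile normalization, median centring, table position, the brightest probe, no filter, a mean Z above 0.5, the 2 groups alone, probe values and each array left out, and 3 with an intensity trend. Between wild-type hippocampi the count of 4 became 2 with table position, 18 with no filter, 0 with a mean Z above 0.5 and 0 with the 2 groups alone (1 to 2 without an array). Between regions of the COX-2 line the count of 3 became 6 with table position, 12 with no filter and 1 with a mean Z above 0.5 (1 to 5 without an array; Ppp3ca alone passed without COX-2+/- cortex replicate 2 or COX-2-/- cortex replicate 2). In the COX-1 line the count of 12 became 31 with no filter and 5 with a mean Z above 0.5 (11 to 13), and the contrast of the lines went from 10 to 24 and 4 (8 to 11). The COX-2 null contrast between regions went from 0 to 1 with median centring, 2 with no filter and 2 with an intensity trend (0 to 3, with 3 without COX-2-/- hippocampus replicate 1), and the COX-1 null contrast from 0 to 1 with an intensity trend (0 to 0). The contrasts of COX-1 and COX-2 differences stayed at 0. The sign of Ppp3ca turned between regions of the COX-2 line with the brightest probe (-0.0203). Filters change the count because other genes are tested, and the other causes were not tested. With the replicate block the COX-2+/- hippocampus count was 1 (Ppp1r12b), the wild-type cortex count 0 and the COX-2 null contrast between regions 1 (Mapk8ip3). No other count moved by over 1.5 times. The numbers were not shown to pair the arrays. Deviations of same-numbered arrays from their group means had correlations from -0.108 to 0.289, most of them above 0. In 0 of 11 comparisons was every pair above 0.1.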

Other observations

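Mtor, the kinase downstream of Akt and not a member of the set, differed by 0.154 in Z between regions of the COX-2 line and by -0.595 in the COX-1 line, and both passed limma. The probe of Ppp4r2 that stood out in COX-2+/- hippocampus also differed by -0.236 in COX-2-/- and by -0.303 in COX-2+/- cortex (z ratios -2.33 and -2.83), against shared wild-type arrays. Its mean lay below 0 in COX-2-/- and in COX-2+/- cortex, so it passed the filter there only through the wild-type arrays. Pairs of probes of the same gene, 53 in all, had differences of the same sign in 26 to 30 pairs in the comparisons that used all probes. Of the 20 pairs on the second part, 9 did so for COX-1 null cortex, 12 between wild-type cortices and 14 between regions of the COX-1 line.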
